A study of Mus musculus with 12 samples.

Results

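The open chromatin around 4 mouse genes of transforming growth factor beta (TGF-beta) activation was described in regulatory and conventional CD4+ T cells. The genes were Tgfb1, Itgav, Itgb8 and Nrp1, and their members were all deposited ATAC-seq peaks lying in 4 windows of the NCBIM37 mouse genome: chr2:83500000-83680000 for Itgav, chr12:120350000-120560000 for Itgb8, chr7:26440000-26510000 for Tgfb1 and chr8:130850000-131080000 for Nrp1. Of 275880 peaks in 12 lists, 285 lay in the windows. Peaks that overlapped by at least 1 bp or touched were merged into regions, which gave 46 regions of 40457 in all: 11 in the Itgav window, 8 in the Itgb8 window, 7 in the Tgfb1 window and 20 in the Nrp1 window. Of these 46 regions, 42 held a peak in at least 2 libraries and 4 in a single library.

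TGF-beta1, the product of Tgfb1, is made as a latent complex in which the cytokine is held inside its own propeptide. GARP, the product of Lrrc32, anchors this complex on the surface of activated regulatory T cells (Treg), and the integrin made of the alpha v subunit (Itgav) and the beta 8 subunit (Itgb8) binds the propeptide and frees the cytokine. Neuropilin-1 (Nrp1) is a surface co-receptor used as a marker of thymus-derived mouse Treg, and it can bind TGF-beta1.

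ATAC-seq, in which a transposase cuts accessible DNA, had been run on nuclei of 100000 sorted spleen cells per library. The cells were CD4+ Foxp3-GFP+ Treg and CD4+ Foxp3-GFP- conventional T cells (Tconv). All animals carried the Foxp3-IRES-EGFP reporter, and they were either wild type (WT) or carried a knockout of an enhancer labelled as lying +70 kb from Lrrc32 (KO), with 3 libraries in each of the 4 groups. Age, sex and pooling of animals are not stated in the labels, and the labels do not say that libraries came from separate animals, so a p-value measures the spread between these libraries. The GFP reporter defines the sort, and the reporter allele was present in every group. The sort could not be checked at its defining marker genes, because no annotation of the build of the lists was used here.

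One library stood apart. KO Treg replicate 2 had 5262 peaks, against 21269 to 27605 in the other 11 lists, and it had 4 peaks in the windows, against 31 to 35 in the other 5 Treg libraries and 17 to 22 in the 6 Tconv libraries. Results that rest on this short list are given with and without it. No read counts or depths were available in the lists, so the measure of each region was whether a library had a peak there. The lowest -log10 p in any list was between 5.01 and 5.06, and weaker signal is recorded as no peak. Within a list, the strength of a peak was described by the percentile of its -log10 p, so that the strongest peak of the list has the highest percentile. Percentiles from lists of different lengths cannot show a change between libraries. In libraries of sorted bulk cells, fewer cells with an open site and weaker opening in each cell cannot be told apart.

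The place of each gene inside its window was not checked, since no annotation of NCBIM37 was used. In the RefSeq gene table of the GRCm38.p6 assembly, a later build than that of the lists, Itgav (gene 16410) lies between Zc3h15 and Fam171b, Itgb8 (gene 320910) between Abcb5 and Macc1, Tgfb1 (gene 21803) between B9d2 and Ccdc97, and Nrp1 (gene 18186) between Pard3 and Itgb1. Coordinates of the 2 builds were not converted, so no region could be assigned to a promoter, exon, intron or untranslated region, and a region is named by its window and its number from the lower window edge. Shown to compare base composition are the promoters of the genes that name the window with the highest share of Treg-enriched regions and the window with none. Each is the run of 250 bases before the gene start in RefSeq on GRCm38.p6, read 5′ to 3′ on the strand of the gene, with CG pairs in capitals. Itgb8 lies on the minus strand at chr12:119238277-119238526, and Tgfb1 on the plus strand at chr7:25686752-25687001.

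Itgb8: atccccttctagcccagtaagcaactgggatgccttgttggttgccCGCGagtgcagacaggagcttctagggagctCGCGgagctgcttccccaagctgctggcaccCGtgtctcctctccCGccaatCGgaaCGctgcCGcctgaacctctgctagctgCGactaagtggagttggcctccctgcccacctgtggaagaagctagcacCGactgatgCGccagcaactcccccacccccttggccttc

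Tgfb1: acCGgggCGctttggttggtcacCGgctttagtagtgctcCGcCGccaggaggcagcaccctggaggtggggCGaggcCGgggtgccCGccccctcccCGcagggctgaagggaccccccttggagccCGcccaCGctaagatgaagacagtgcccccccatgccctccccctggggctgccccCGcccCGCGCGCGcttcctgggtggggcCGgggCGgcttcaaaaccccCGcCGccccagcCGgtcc

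All 4 promoters were richer in CG pairs than the median of 6 over 32851 RefSeq promoters of the same length: Tgfb1 held 21, Itgav 18, Itgb8 12 and Nrp1 11. Their GC content was 75.2% for Tgfb1, 64.4% for Itgav and for Nrp1, and 62.4% for Itgb8, against a median of 52.4%. The letters GGGCGG, searched on both strands, were found in the Tgfb1 and Nrp1 promoters and in 32.7% of all promoters. CCAAT was found in the Itgb8 promoter and in 33.8% of all promoters. The forkhead motif TGTTTAC was found in none of the 4 and in 3.17% of all promoters. Of all promoters, 83.7% held fewer CG pairs than Tgfb1, 78.3% fewer than Itgav, 66.5% fewer than Itgb8 and 64.4% fewer than Nrp1. Itgb8 and Tgfb1 thus both had promoters above the median in CG pairs, Itgb8 less far above it.

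The first comparison was between the cell types. The call Treg-enriched, or Tconv-enriched, required a lead of 5 or 6 libraries of that cell type over the other, the smallest difference with a two-sided Fisher's exact p under 0.05. Over the 32787 regions found in 2 or more libraries, 3.2% were Treg-enriched and 3.55% were Tconv-enriched. In the 4 windows, 6 of 42 regions (14.3%) were Treg-enriched: 3 of 8 (37.5%) at Itgb8, 2 of 10 (20%) at Itgav, 1 of 18 at Nrp1 and 0 of 6 at Tgfb1. A single region of the 42 (2.38%), in the Nrp1 window, was Tconv-enriched. Benjamini-Hochberg adjustment was made over all 32787 regions. Fisher's exact test then gave an adjusted p of 0.123 for a region open in 6 Treg and 0 Tconv libraries. No larger split of the libraries is possible, so no region, in the windows or elsewhere, could pass 0.05 after adjustment. For a difference of 5 libraries Fisher's exact p was 0.0152, or 0.224 after adjustment.

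**Figure D1:**
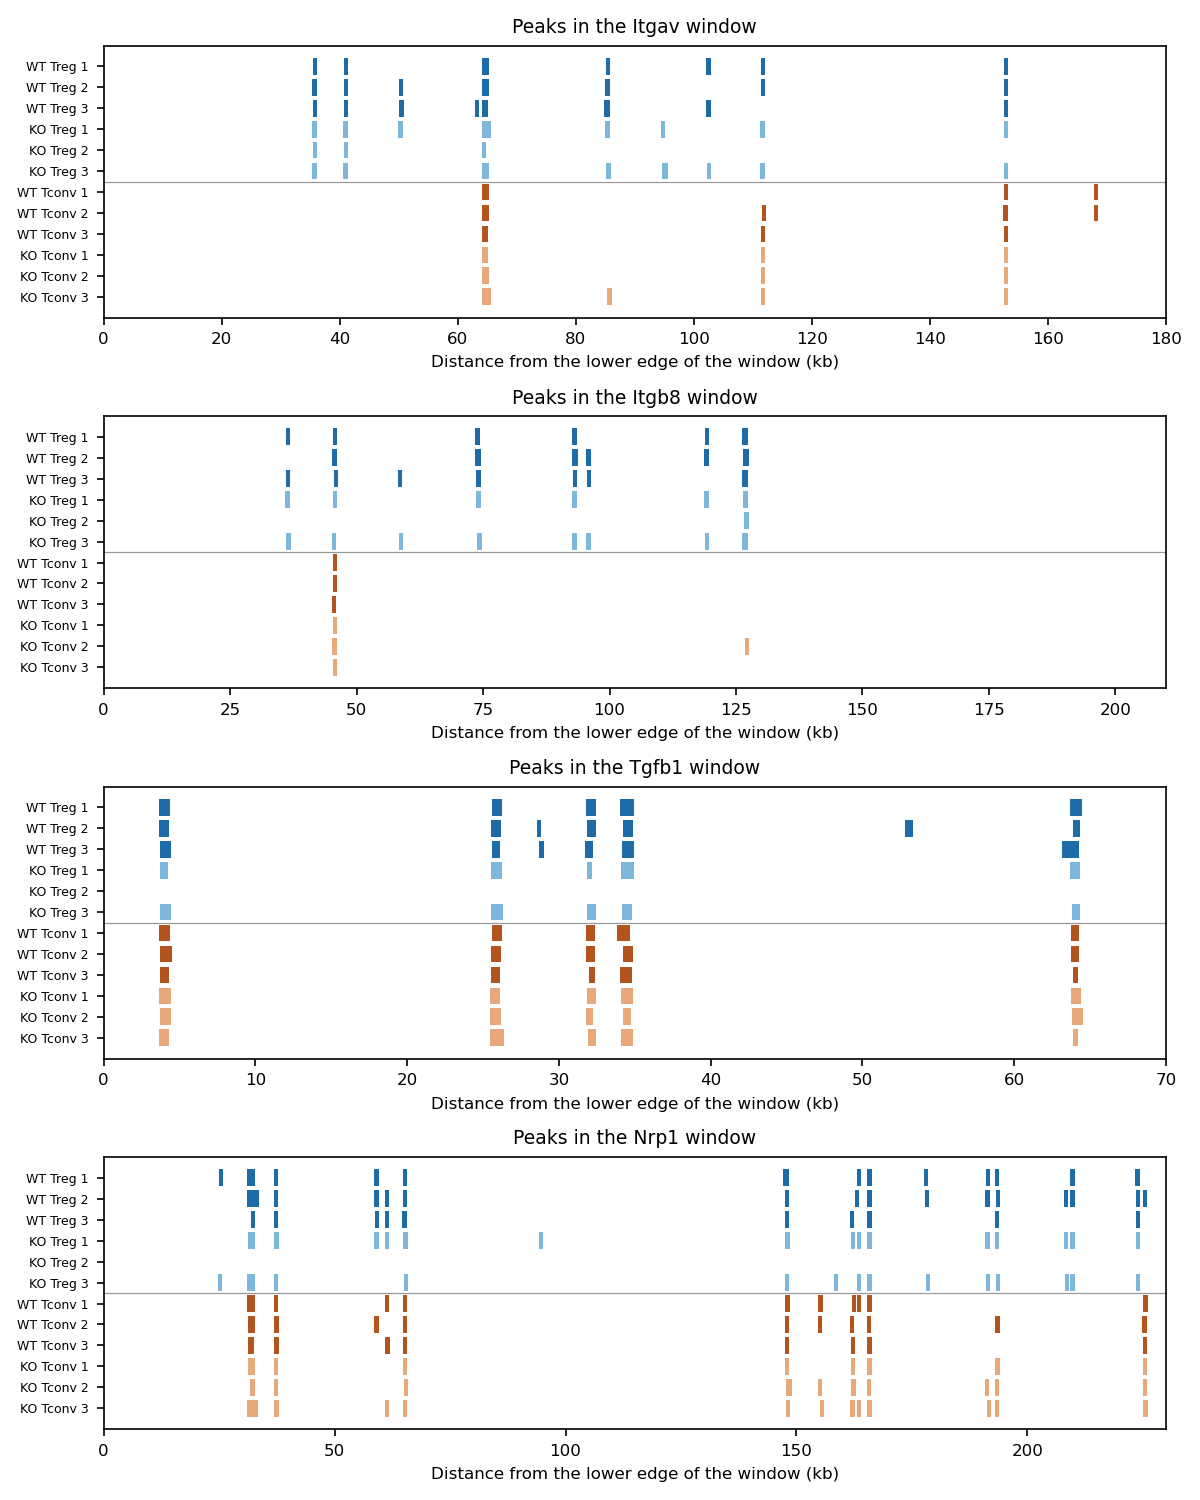
Peaks of the 12 lists in the 4 windows. Each row is a library and each bar a peak, drawn at least 0.4% of the window's length wide, over the distance in kb from the lower window edge, with Treg above and Tconv below the grey line, WT in dark and KO in light shades. At Itgb8 the 6 Tconv rows hold 1 or 2 open regions each, while the 5 Treg rows with long lists hold 6 to 8. At Tgfb1 the same 5 columns of bars run through all rows except KO Treg 2.

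The Tgfb1 window, that of the ligand, looked alike in both cell types. In each of the 6 Tconv libraries 5 regions were open. The WT Treg libraries had 5, 7 and 6 open regions, the KO Treg libraries had 5, 0 and 5, and the 0 was that of the short list. The mean was 4.67 ± 2.42 (SD, n = 6) in Treg, or 5.6 ± 0.894 (SD, n = 5) without the short list, against 5 ± 0 (SD, n = 6) in Tconv. The ranges overlapped, and the sign of the difference turned when the short list was left out.

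The same 5 Tgfb1 regions were open in all 11 libraries with long lists. The strongest by mean percentile was region 2 at chr7:26465461-26466351. Its peak stood at percentiles of 88.7, 85.0 and 86.5 in WT Treg 1 to 3 and at 88.0 and 82.3 in KO Treg 1 and 3. In WT Tconv the values were 93.8, 89.3 and 85.9, and in KO Tconv 92.2, 91.7 and 78.9. The Treg values thus lay inside the range of the Tconv values. Region 1 at chr7:26443623-26444481 was about as strong, at percentiles of 75.9 to 91.9 in Treg and 86.6 to 93.1 in Tconv, and its fold over background, the authors' own value for each peak, was 8.24 to 11.8 in Treg and 8.23 to 10.5 in Tconv. Region 7 at chr7:26503163-26504509 ranged from 60.5 to 79.8 in Treg and from 61.1 to 84.6 in Tconv.

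The other open regions at Tgfb1 were weaker. Region 5 at chr7:26473859-26474950 ranged from 36.5 to 69.4 in Treg and from 10.8 to 62.7 in Tconv. Region 4 at chr7:26471699-26472470 ranged from 10.2 to 36.6 in Treg and from 0.73 to 46.8 in Tconv, where the lowest value was that of WT Tconv 3. Both cell types spanned overlapping ranges at these 2 regions. The remaining 2 were held by WT Treg alone: region 3 at chr7:26468612-26469029 in WT Treg 2 and 3, at percentiles of 20.03 and 8.33, and region 6 at chr7:26492796-26493342 in WT Treg 2, at 6.95.

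The Itgav window, that of the alpha v subunit, which also pairs with other beta subunits, held more open regions in Treg. WT Treg had 7, 7 and 8 open regions and KO Treg 8, 3 and 8, with the 3 in the short list. WT Tconv had 3, 4 and 3, and KO Tconv 3, 3 and 4. The mean was 6.83 ± 1.94 (SD, n = 6) in Treg against 3.33 ± 0.516 (SD, n = 6) in Tconv, and without the short list Treg had 7.6 ± 0.548 (SD, n = 5). The 5 Treg libraries with long lists all lay above the 6 Tconv libraries, and the short list fell on the lowest Tconv value.

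Both Treg-enriched regions at Itgav were open in 6 of 6 Treg and 0 of 6 Tconv libraries, the short list included. For Itgav region 2, at chr2:83540576-83541453, the peak stood at percentiles of 71.6, 87.5 and 89.4 in WT Treg 1 to 3 and of 94.8, 77.3 and 93.4 in KO Treg 1 to 3. Its fold over background was 6.04 to 7.62, and all 6 peaks shared a core of 502 bp. Fisher's exact p was 0.00216 and its adjusted p 0.123. By the mean percentile of its peaks in the 5 long Treg lists (87.3), it was number 4 of the 1050 Treg-enriched regions of the genome, whose median was 36.6. A region with fewer peaks is ranked by those it has, so the ranks are a description. No Tconv library had a peak there, so no fold between the cell types can be given.

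Itgav region 1, at chr2:83535426-83536138, was weaker. Its percentiles were 46.7, 57.6 and 49.998 in WT Treg and 71.5, 20.7 and 58.8 in KO Treg, with folds of 4.54 to 5.85. The lowest value was that of the short list. The pair of regions spanned 6.03 kb, and its centres lay at -29.1 and -23.9 kb from the centre of Itgav region 5.

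Itgav region 5, at chr2:83564044-83565694, was the strongest shared region of the window and the only one of the 46 with a peak in all 12 libraries. Its percentiles were 83.7, 79.1 and 86.9 in WT Treg, 79.8, 70.9 and 86.0 in KO Treg, 81.5, 82.2 and 80.6 in WT Tconv, and 88.1, 90.4 and 77.5 in KO Tconv. The medians were 81.8 in Treg and 81.9 in Tconv, and the ranges overlapped. Itgav region 10, at chr2:83652581-83653155, was open in 5 Treg and 6 Tconv libraries. Region 9, at chr2:83611294-83611958, was open in 4 and 5.

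Just outside the limit for a call, Itgav region 6 at chr2:83584777-83585776 was open in 5 Treg libraries, at percentiles of 27.1 to 47.2, and in KO Tconv 3, at 24.6 (Fisher's exact p = 0.0801, adjusted 0.634). In all, 5 of the 10 tested Itgav regions were open in at least 2 Treg and in no Tconv library, a pattern that 11.5% of the 32787 regions had. The opposite pattern, at least 2 Tconv and no Treg library, was held by 1 Itgav region and by 9.22% of all regions. That Itgav region was region 11 at chr2:83667994-83668307, with percentiles of 10.01 and 15.3 in WT Tconv 1 and 2.

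The Itgb8 window, that of the beta 8 subunit, which pairs with alpha v alone, held the highest share of Treg-enriched regions. WT Treg had 6, 6 and 7 open regions and KO Treg 6, 1 and 8. WT Tconv had 1, 1 and 1, and KO Tconv 1, 2 and 1. The mean was 5.67 ± 2.42 (SD, n = 6) in Treg against 1.17 ± 0.408 (SD, n = 6) in Tconv, and 6.6 ± 0.894 (SD, n = 5) in Treg without the short list. The 5 Treg libraries with long lists lay far above all Tconv libraries, and the short list lay within the Tconv range.

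**Figure D2:**
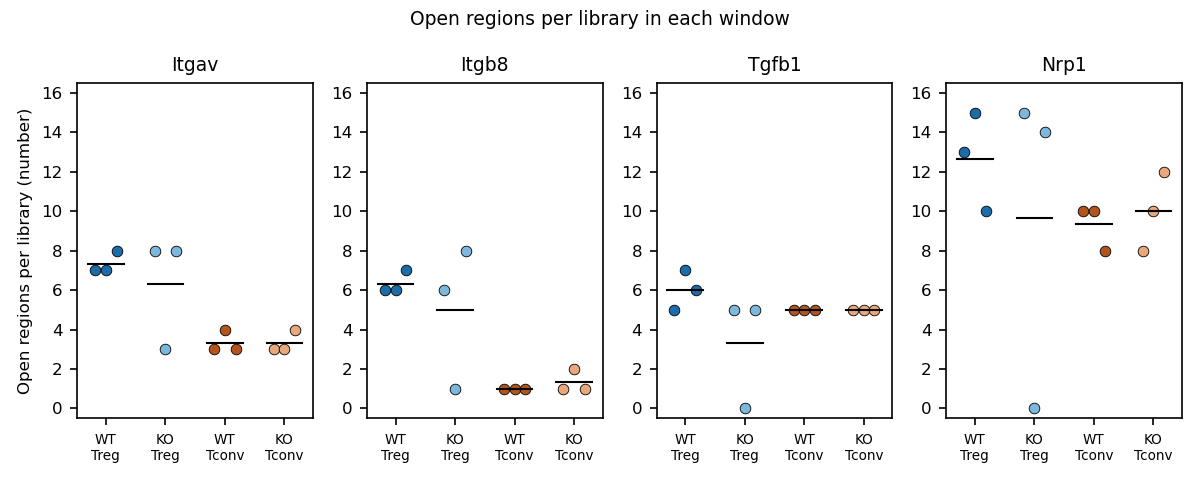
Number of open regions per library in each of the 4 windows. Dots are libraries, grouped as WT Treg, KO Treg, WT Tconv and KO Tconv, and lines are group means. The Itgb8 and Itgav Treg dots lie above the Tconv dots apart from KO Treg 2, the Tgfb1 dots lie between 5 and 7 apart from KO Treg 2 at 0, and the Nrp1 dots of the cell types overlap.

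The strongest Treg-enriched region at Itgb8 by its Treg percentiles was region 8, at chr12:120476240-120477503, open in 6 Treg libraries and 1 Tconv library. Its percentiles were 84.2, 83.0 and 77.6 in WT Treg and 83.8, 51.3 and 79.7 in KO Treg. The Tconv peak, in KO Tconv 2, stood at 13.2 and was 329 bp wide, whereas the peaks of the 5 Treg libraries with long lists were 1099 to 1184 bp wide and that of the short list 350 bp. The region was thus open in every Treg library, and the single Tconv peak was low in its list.

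Itgb8 region 5, at chr12:120442585-120443683, was open in 5 Treg libraries and no Tconv library. Its percentiles were 76.2, 72.7 and 72.0 in WT Treg and 73.5 and 76.7 in KO Treg 1 and 3, with folds of 6.16 to 6.71. These 5 values lay close together. Itgb8 region 4, at chr12:120423431-120424619, was open in the same 5 libraries at lower percentiles of 25.7, 40.1 and 34.3 in WT Treg and 55.1 and 46.4 in KO Treg 1 and 3. By the same mean over the 5 long Treg lists, region 8 was number 9 of the 1050 Treg-enriched regions, region 5 number 31 and region 4 number 431. The short list had no peak at regions 4 and 5.

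The 3 regions spanned 54.1 kb, and their centres lay 28.3, 47.5 and 81.2 kb above the centre of Itgb8 region 2. That region, at chr12:120395163-120396197, was the only one of the window open in all 6 Tconv libraries. Its percentiles were 65.9, 66.4 and 60.9 in WT Treg, 67.9 and 76.2 in KO Treg 1 and 3, 41.4, 48.1 and 49.6 in WT Tconv, and 61.7, 53.4 and 64.2 in KO Tconv. Treg and Tconv values overlapped through KO Tconv 1 and 3. Every Tconv library thus had an open region in the Itgb8 window.

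Just outside the limit, Itgb8 region 7 at chr12:120468913-120469436 was open in WT Treg 1 and 2 and KO Treg 1 and 3, at percentiles of 47.6, 33.0, 31.5 and 30.7. Itgb8 region 1 at chr12:120386138-120386795 was open in WT Treg 1 and 3 and KO Treg 1 and 3, at 25.6, 7.45, 31.2 and 10.1. No Tconv library had a peak at either (Fisher's exact p = 0.0606, adjusted 0.549 for each). In all, 6 of the 8 Itgb8 regions were open in at least 2 Treg and no Tconv libraries, against the 11.5% of all regions, and none was open in Tconv alone. Beyond the upper edge, 3.84 kb outside the window, a further region at chr12:120563843-120564166 was open in 3 Treg and 0 Tconv libraries and is not counted among the members.

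The Nrp1 window, the widest, held regions that differed in both directions. WT Treg had 13, 15 and 10 open regions, KO Treg 15, 0 and 14, WT Tconv 10, 10 and 8, and KO Tconv 8, 10 and 12. The mean was 11.2 ± 5.78 (SD, n = 6) in Treg and 9.67 ± 1.51 (SD, n = 6) in Tconv, or 13.4 ± 2.07 (SD, n = 5) in Treg without the short list. The groups overlapped with and without that list, since WT Treg 3 had as many regions as 3 of the Tconv libraries.

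The 2 called regions of the Nrp1 window were neighbours, 743 bp apart, with opposite calls. Nrp1 region 19, at chr8:131073448-131074330, was Treg-enriched, with peaks in 5 Treg libraries and no Tconv library. Its percentiles were 42.0, 59.5 and 57.6 in WT Treg and 49.6 and 66.7 in KO Treg 1 and 3. Nrp1 region 20, at chr8:131075074-131075781, was Tconv-enriched, with peaks in all 6 Tconv libraries and in WT Treg 2. Its percentiles were 59.3, 34.5 and 18.3 in WT Tconv, 37.7, 66.7 and 44.1 in KO Tconv, and 23.0 in WT Treg 2. The Treg peak lay inside the range of the Tconv values. The short list had no peak in the window, so the Tconv call counted it as 1 of the 5 Treg libraries with no peak.

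Their centres lay 75.8 and 77.3 kb above that of the strongest shared region. Region 19 was number 174 of the 1050 Treg-enriched regions by that mean. By the mean over the 6 Tconv lists, region 20 was number 335 of the 1163 Tconv-enriched regions, with 43.4 against a median of 32.9. The share of called Nrp1 regions, 1 of 18 (5.56%) in each direction, was near the 3.2% and 3.55% of all regions.

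Nrp1 region 8, at chr8:130997173-130998985, was the strongest shared region. Its percentiles were 57.9, 77.7 and 72.5 in WT Treg, 39.9 and 71.5 in KO Treg 1 and 3, 64.4, 86.8 and 86.3 in WT Tconv, and 78.1, 77.1 and 77.9 in KO Tconv. The ranges overlapped. Another 4 Nrp1 regions were open in all libraries but the short list. The widest of the 46 regions was among them, region 2 at chr8:130881106-130883540, with 2435 bp. At region 13, chr8:131015562-131015926, percentiles were 44.7 to 71.6 in Treg and 58.4 to 80.8 in Tconv.

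Just outside the limit at Nrp1, 1 region was open in more Treg libraries and 2 in more Tconv libraries. Nrp1 region 18 at chr8:131059645-131059905 was open in 4 Treg libraries and no Tconv library, at percentiles of 45.5, 26.9, 42.6 and 43.7. Nrp1 region 9 at chr8:131004868-131005895 was open in 4 Tconv libraries and no Treg library, all low in their lists at 4.995 to 11.8. Nrp1 region 11 at chr8:131011808-131012660 was open in 6 Tconv libraries at 10.9 to 31.4 and in 2 Treg libraries at 2.69 and 2.35. Fisher's exact p was 0.0606 for each of the 3, or 0.549 after adjustment. A gap of 30 bp divided region 11 from region 12 at chr8:131012691-131014079, which was open in 4 Treg and 2 Tconv libraries. Above the Nrp1 window, 38.1 kb outside, the nearest tested region at chr8:131118054-131119911 was open in 0 Treg and 6 Tconv libraries. It is not counted among the members.

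**Figure D3:**
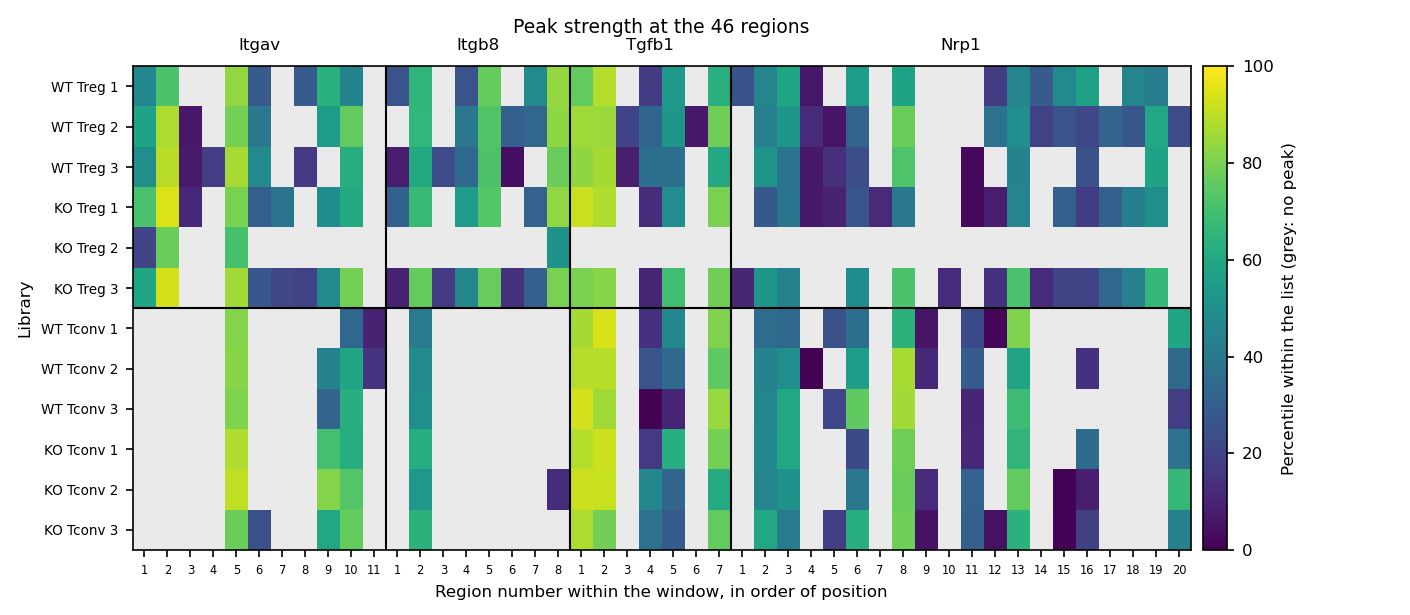
Percentile of the -log10 p of each peak within its own list, for the 12 libraries (rows) at the 46 regions (columns, by window). Grey cells have no peak. The columns of the 6 Treg-enriched regions are filled in the other Treg rows and grey in nearly all Tconv rows. The KO Treg 2 row holds 4 filled cells.

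The 4 peaks of the short list lay at Itgav regions 1, 2 and 5 and at Itgb8 region 8, and none lay in the Tgfb1 or Nrp1 windows. Itgb8 region 5, with a higher mean percentile than Itgav region 1, had no peak there. For 3 of the 6 Treg-enriched regions (Itgb8 4 and 5 and Nrp1 19) the short list was the single Treg library with no peak. Without it, and with a lead of 4 libraries as the limit, Treg-enriched regions numbered 3 at Itgav, 5 at Itgb8 and 2 at Nrp1. With the same setting 3 Nrp1 regions were Tconv-enriched. This lower limit takes in regions that stood just outside before. The share of all regions called at that limit was not computed, so these counts have no background beside them.

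The second comparison asked whether the enhancer knockout changed any of these regions within a cell type. A region was called lost when 3 of 3 WT and 0 of 3 KO libraries held a peak, and gained in the opposite case. With 3 libraries against 3 the smallest two-sided Fisher's exact p is 0.1, so this is a description. Over all 32787 regions 0.973% were lost and 0.0305% gained in KO Treg, and 0.189% were lost and 0.793% gained in KO Tconv. In the windows 0 of 42 regions were lost or gained in either cell type. A gain in KO Treg requires a peak in the short list, and a loss requires that it has none. How far the short list shaped the shares over all regions was not tested.

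Of the 22 regions open in all 3 WT Treg libraries, 21 were open in both KO Treg 1 and 3, and 1 in KO Treg 1 alone. Over all lists, 92.5% of the 19846 regions open in the 3 WT Treg libraries were open in both, so the members were near the background. The single exception was Nrp1 region 4 at chr8:130908955-130909333, with percentiles of 6.61, 12.04 and 6.85 in WT Treg and 6.67 in KO Treg 1, all near the bottom of their lists. In the other direction, Itgav region 7 at chr2:83594670-83595675 had no peak in WT Treg and stood at 38.3 and 21.2 in KO Treg 1 and 3. In Tconv, 15 of 15 regions open in the 3 WT libraries were open in the 3 KO libraries, against 93.3% of 18361 regions over all lists. Over both cell types, 6 WT against 6 KO libraries, Fisher's exact test gave 0 of 42 regions an unadjusted p under 0.05, against 22 of 32787 in all, and the smallest p in the windows was 0.242, or 1 after adjustment.

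**Figure D4:**
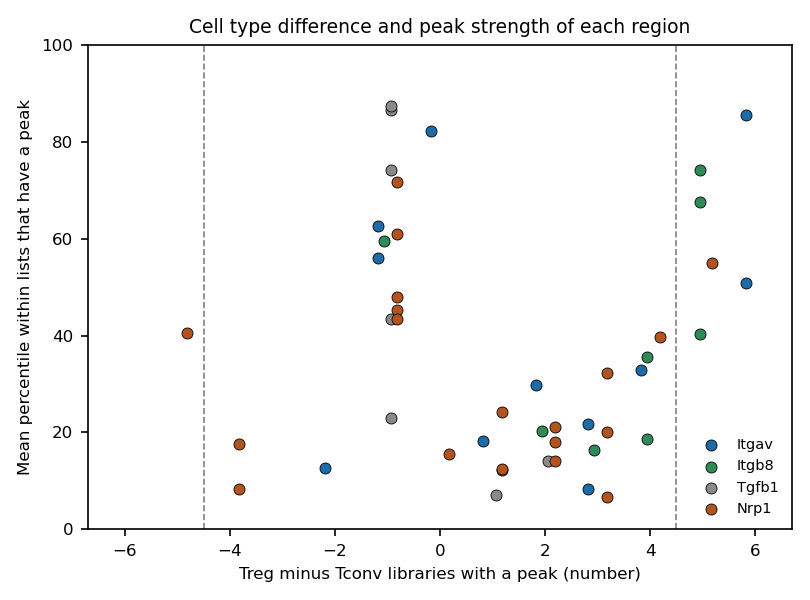
Difference in the number of libraries with a peak, Treg minus Tconv, against the mean within-list percentile over the libraries with a peak, for the regions of the 4 windows. Dashed lines mark the limit of 5 libraries for a call, and points are shifted slightly sideways by window to separate them. Itgav 2, Itgb8 5 and Itgb8 8 are at the upper right with mean percentiles of 85.7, 74.2 and 67.5. The 67.5 of Itgb8 8 includes KO Treg 2 and a Tconv peak. Over the 5 long Treg lists alone the mean was 81.7 for Itgb8 8 and 74.2 for Itgb8 5. The Tgfb1 regions lie at differences from -1 to 2, and Nrp1 20 is the one point at -5.

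Over the lists, 45.1% of the 32787 tested regions were open in 11 or 12 libraries. In the windows such shared regions were 5 of 6 tested at Tgfb1, 5 of 18 at Nrp1, 2 of 10 at Itgav and 1 of 8 at Itgb8. Regions open in at least 2 Treg and no Tconv libraries were 6 of 8 at Itgb8, 5 of 10 at Itgav, 5 of 18 at Nrp1 and 1 of 6 at Tgfb1, and the opposite pattern was held by 1 region at Itgav and 1 at Nrp1. These counts stand beside the 11.5% and 9.22% of all regions. The width of the 46 regions was 239 to 2435 bp, with a median of 727.5 bp. The windows were not compared with each other by a test, since they were chosen with earlier results known.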

How the data were processed

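ATAC-seq peak lists of 12 libraries (3 each of WT Treg, KO Treg, WT Tconv and KO Tconv) were used, each as a deposited broad peak list. The submitters' processing notes name the build NCBIM37 and, without saying what each was used for, MACS2, Bowtie2, DESeq2, DiffBind and Trim Galore 0.4.4. Read filters, shifting of cut sites and a control input were not described there, and the depth of the libraries is unknown. Each deposited peak carries a score, a −log10 p, a −log10 q and its fold ratio over background, all given by the authors for that peak in its own list. These values were used to describe or filter peaks within a list. DiffBind and DESeq2 were not run, since the lists hold no counts. The numbers inside the peak names differ from those the lists were deposited under, and the deposit's own assignment was used.

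Peaks of all lists were merged into regions in Python 3.11.15 (scipy 1.17.1, pandas 2.3.3, numpy 2.4.6 and, for figures, matplotlib 3.10.9). A region was tested when at least 2 libraries held a peak. Cell types were compared by a two-sided Fisher's exact test of presence (6 against 6 libraries), adjusted by the Benjamini-Hochberg method over 32787 regions. The members, windows, gene lists and limits were chosen with earlier results of these data known. Regions were named where they were called, were the strongest of a window among those open in at least 11 libraries, or differed by 4 libraries; other named regions were chosen after their values were seen. The checks at marker genes and at other pathway genes were not run, since they need an annotation of NCBIM37. Alternatives were other peak limits, equal list lengths, other overlap, merging and library minimums, other call limits, each genotype alone, a replicate block and leaving out each library. Leaving out KO Treg 2 from the KO libraries alone was chosen after seeing the data.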

Additional observations from a re-analysis of the deposited data

Results flagged for a closer look

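In 28 groups of 4 to 6 libraries, 8 had a library whose gap to the nearest of the others was large for the range of its group (Dixon's test at the 95% level). That level is meant for continuous values, while some groups were small tied counts, and KO Treg 2 recurred across groups. No rate by chance is therefore set beside the 8. KO Treg 2, whose list held 5262 peaks, gave 5 of the 8. It had 3 open regions at Itgav against 7 to 8 in the other Treg libraries, 1 at Itgb8 against 6 to 8, 0 at Tgfb1 against 5 to 7 and 0 at Nrp1 against 10 to 15. At Itgb8 region 8 its percentile was 51.3 against 77.6 to 84.2 in the other Treg libraries. These are ranks in lists of unlike length, so this gap cannot show a change at that region.

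KO Tconv 2 had 2 open regions at Itgb8 against 1 in each of the other Tconv libraries, through its peak at region 8. Among counts that are otherwise equal, any differing library is flagged. WT Treg 1 stood at a percentile of 47.6 at Itgb8 region 7, against 30.7 to 33.0 in the other 3 Treg libraries with a peak there. WT Treg 2 stood at 26.9 at Nrp1 region 18, against 42.6 to 45.5 in the other 3.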

How the results depend on the processing

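For 17 results, 343 alternative values were computed: 284 stayed the same, 57 moved and 2 reversed. A count stayed the same when it was equal or within 1.5 times the value given. A difference of means did so when it shifted by less than 1 SD of the Treg counts, short list included. Most of the 284 were counts of 0 that stayed 0, so the total says little about the called regions. For the calls at Nrp1, most alternatives moved. When every list was cut to its 5262 strongest peaks, 1 Treg-enriched region was left at Itgav, 1 at Itgb8 and 0 at Nrp1, with 0 Tconv-enriched at Nrp1, and the mean number of open regions per library in Treg minus Tconv was 0.833 at Itgav, 1 at Itgb8 and -0.667 at Nrp1, the last a reversal from 1.5. With lists of 21269 peaks, KO Treg 2 left out and a limit of 4, Nrp1 had 3 Treg-enriched and 2 Tconv-enriched regions. In that setting 1 region was lost and 1 gained in KO Treg, where only KO Treg 1 and 3 stood against WT Treg. List length, call limit and number of libraries changed together there, so their parts cannot be told apart. A difference of 6 libraries left 0 Treg-enriched regions at Itgb8, and 0 in each direction at Nrp1. A difference of at least 4 gave 5 at Itgb8, and 2 Treg-enriched and 3 Tconv-enriched at Nrp1. WT libraries alone, and peaks with a −log10 q of at least 5, each gave 0 Tconv-enriched regions at Nrp1. KO libraries alone gave 0 Treg-enriched regions at Itgb8 and 0 at Nrp1, and such a call needs a peak in the short list. Itgb8 region 8 had that peak but was not called, because KO Tconv 2 also had a peak there. Without KO Treg 2 there were 4 at Itgb8 and 3 at Nrp1. When 2 of 3 against 0 of 3 libraries sufficed, KO Treg had 1 lost and 1 gained region, as did KO Tconv with 1 and 1. Shares over all regions were not computed for any of the alternatives, so their counts have no background beside them. With single libraries left out and a limit of 4, there were 3 to 5 Treg-enriched regions at Itgb8, 1 to 3 Treg-enriched and 1 to 3 Tconv-enriched at Nrp1, 0 to 1 regions lost or gained in each cell type, and a Treg minus Tconv difference of -0.8 to 0.6 at Tgfb1 (-0.333 with all libraries, and 0.6 without KO Treg 2). Where the call limit, list length or number of libraries was not what changed, the cause was not tested. For 17 named regions, 68 alternative library differences were computed: 34 stayed the same, 33 moved and 1 reversed, Itgb8 region 2, from -1 to 2 when peaks had to cover 50% of the region. Depth limits all of these, since a region under the authors' peak limit reads as having no peak.

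Replicate numbers gave no clear sign of pairing. Deviations of Treg and Tconv libraries with the same number correlated at 0.0152 to 0.0608 in WT and at -0.0283 to 0.00841 in KO. Of 6 Treg libraries, 2 correlated best with their own number, WT Treg 1 and WT Treg 3. Such weak correlations cannot show whether libraries with the same number came from the same animals. With the replicate block (exact McNemar test over 6 pairs), 2 Treg-enriched regions were called at Itgav, 0 at Itgb8 and 0 at Nrp1, and 0 Tconv-enriched at Nrp1, since only 6 against 0 can pass that test.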
